A study of Mus musculus with 6 samples.

Results

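Interferon signalling and class I antigen presentation were followed in embryonic neural stem cells through 34 genes. They comprise 4 interferon receptor chains, 3 Janus kinases with Stat2, 5 interferon regulatory factors, 9 interferon-induced effectors, 5 immunoproteasome genes and 7 genes of class I presentation. The genes were chosen by name, and all 34 were found among the 24421 gene symbols of the deposited count table. Of these, 25 had enough reads to be tested, and the other 9 are given by their reads.

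Pml knockout cells (3 libraries) were set against WT cells (3 libraries). Both were primary neural stem cells from E13.5 mouse brain, kept as neurospheres, which are floating clusters of dividing progenitors. The medium held EGF and FGF2 at 20 ng/ml each under 20% oxygen, and neurospheres were lysed on day 4 after dissociation; the labels name no interferon treatment. The mouse strain, the part of Pml that was removed and the origin of replicates, from separate embryos or not, are not stated in the labels, so p-values measure the spread between these libraries, which may be technical. The libraries were made by a 3′ tag protocol, which counts reads near the transcript end.

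Interferons are cytokines released on viral infection. Type I interferons bind Ifnar1 and Ifnar2, and interferon gamma binds Ifngr1 and Ifngr2. The receptors act through Janus kinases and Stat proteins, and Stat2 with Irf9 takes part in the complex that binds interferon-stimulated response elements in target promoters. Among the targets are antiviral effectors, the immunoproteasome that cuts peptides, the Tap transporter that carries them into the endoplasmic reticulum, and the class I molecules that display them. Pml is itself an interferon-induced gene in many cell types, and neural progenitors are known for low class I display.

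The response element core was searched in RefSeq promoters (GRCm38.p6), from 250 bases before to 50 after each annotated start, to show which of these genes carry it there. The core, GAAA followed after any 2 bases by another GAAA, was searched on both strands and was present for 11 of the 32 members with a promoter entry (34.4%), and for 3.99% of the 27025 genes with an entry. The 11 are B2m, Bst2, Eif2ak2, Ifit1, Ifit3, Ifitm2, Ifitm3, Irf2, Isg15, Psme1 and Stat2. The gamma-activated site core TTCNNNGAA, searched likewise, was present for 9 of the 32 (28.1%) and for 9.55% of all genes. A match is a run of letters, not a shown binding site. Below are 5 promoters with the element core in capitals. Isg15, Ifit1 and Ifit3 are shown because they carry matches and had almost no reads, and B2m and Ifitm3 because their call turned on a single library. In Isg15 (chr4:156200769-156201068, minus strand) 3 overlapping matches begin 78, 72 and 66 bases before the start. Matches begin 104 and 85 bases before it in Ifit1 (chr19:34640639-34640938, plus strand), 156 and 122 before it in Ifit3 (chr19:34583279-34583578, plus strand) and 139 before it in B2m (chr2:122147437-122147736, plus strand). In Ifitm3 (chr7:141010695-141010994, minus strand) they begin 2 and 19 bases after it.
Isg15: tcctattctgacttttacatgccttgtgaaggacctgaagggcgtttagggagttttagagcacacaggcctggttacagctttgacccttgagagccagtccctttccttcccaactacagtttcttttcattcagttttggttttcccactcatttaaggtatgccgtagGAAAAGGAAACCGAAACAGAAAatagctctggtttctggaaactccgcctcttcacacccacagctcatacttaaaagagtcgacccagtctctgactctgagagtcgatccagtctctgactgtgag
Ifit1: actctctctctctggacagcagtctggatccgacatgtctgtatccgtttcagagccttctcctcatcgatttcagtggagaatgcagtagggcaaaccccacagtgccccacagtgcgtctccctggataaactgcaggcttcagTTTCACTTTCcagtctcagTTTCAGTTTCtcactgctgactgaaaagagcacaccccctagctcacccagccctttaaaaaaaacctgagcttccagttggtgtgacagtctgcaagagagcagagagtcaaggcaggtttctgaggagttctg
Ifit3: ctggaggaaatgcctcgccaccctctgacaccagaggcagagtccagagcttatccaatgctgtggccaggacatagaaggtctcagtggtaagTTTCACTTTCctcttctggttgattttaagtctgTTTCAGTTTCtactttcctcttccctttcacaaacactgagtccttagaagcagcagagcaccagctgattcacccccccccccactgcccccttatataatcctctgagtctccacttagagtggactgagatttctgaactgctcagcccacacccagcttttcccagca
B2m: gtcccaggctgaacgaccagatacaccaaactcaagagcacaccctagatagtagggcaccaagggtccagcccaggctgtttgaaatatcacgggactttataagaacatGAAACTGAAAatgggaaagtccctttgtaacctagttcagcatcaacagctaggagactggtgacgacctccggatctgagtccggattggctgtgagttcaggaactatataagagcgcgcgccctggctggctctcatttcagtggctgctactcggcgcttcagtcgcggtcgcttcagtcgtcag
Ifitm3: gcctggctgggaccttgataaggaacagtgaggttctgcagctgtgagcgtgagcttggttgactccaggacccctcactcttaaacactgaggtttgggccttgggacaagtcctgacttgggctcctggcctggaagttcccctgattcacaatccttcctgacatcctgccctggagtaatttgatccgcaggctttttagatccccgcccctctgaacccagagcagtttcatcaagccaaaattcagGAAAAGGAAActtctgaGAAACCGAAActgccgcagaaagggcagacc

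No member passed the test. By edgeR's quasi-likelihood test with Benjamini-Hochberg adjustment over 11317 genes, 0 of 25 tested members had an adjusted p under 0.05, where 0.00884% of all genes did, a single gene. At an unadjusted p under 0.05 there was 1 member (4%), Psmb10, against 15.9% of all genes tested. It was lower, as were 9.19% of all genes at that p, and 0 members were higher, against 6.7% of all genes. DESeq2 called 0 members (2.9% of all genes), the edgeR exact test 0 (3.17%), limma voom 0 (0% of all genes) and voom with library quality weights 0 (11% of all genes). At an unadjusted p under 0.05, DESeq2, the exact test and limma voom each had 1 member (4%), against 18.1%, 18.7% and 15.2% of all genes. Voom with quality weights had 6 (24%), against 29.7% of all genes. Of the members, 28 have a p-value in the authors' deposited table and 0 have an adjusted p under 0.05, beside 2.94% of its 12349 genes. Of the 25 tested members 19 were lower and 6 higher in knockout cells, with a median log2 fold change of -0.42, while the median of all genes tested was -0.01 and 49.7% of them were higher. Scaled to library totals alone, 12 members were lower and 13 higher, with 75.6% of all genes higher. In both scalings 19 of the 25 lay below the median of all genes. With library totals the 1 member at an unadjusted p under 0.05 was Ifnar1, which was higher (edgeR adjusted p = 0.305), in place of Psmb10 (edgeR adjusted p = 0.496). With WT replicate 3 as the sole WT library 6 of 27 tested members were lower and 21 higher. Levels below are in CPM, read counts scaled to a common library size with normalization factors, and log2 fold changes are knockout over WT.

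**Figure D1:**
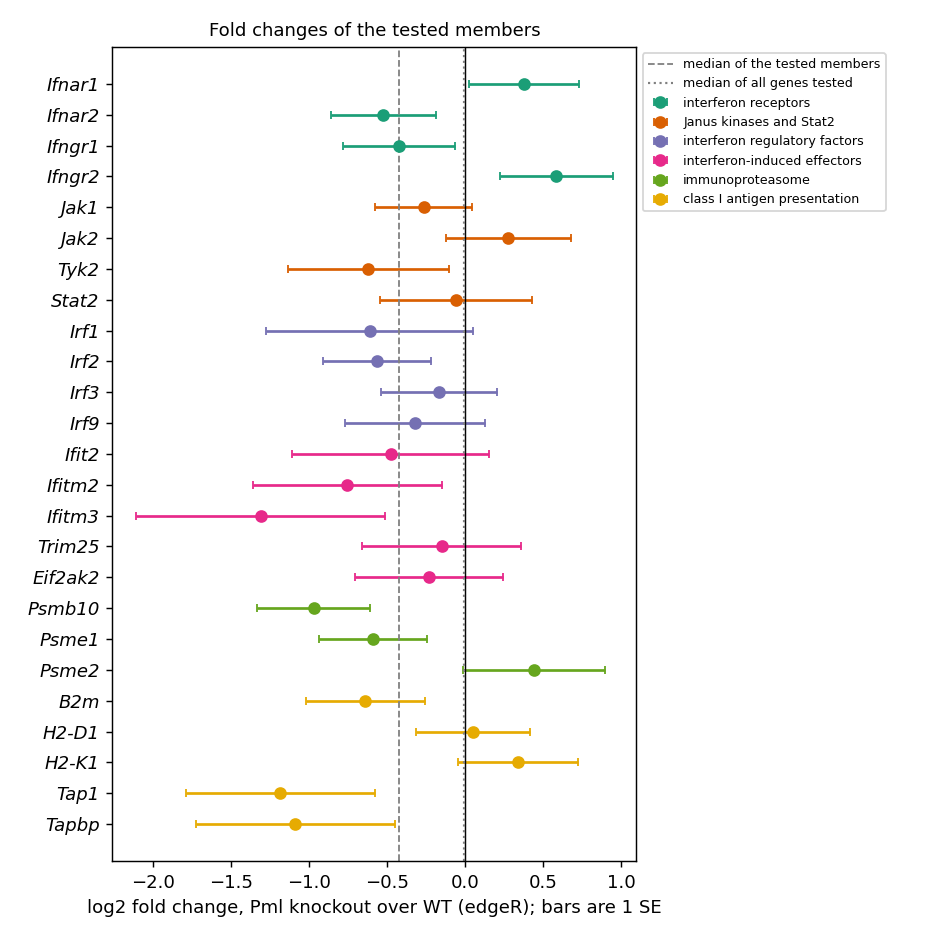
Log2 fold change (Pml knockout over WT) of the 25 tested members, coloured by role, with bars of 1 standard error; n = 3 libraries per genotype. The lowest value is Ifitm3 at -1.31 and the highest Ifngr2 at 0.59, and no member passed at an adjusted p under 0.05.

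The WT libraries were not alike, and every member was compared with them. Library totals ran from 4980638 to 5917505 counts in knockout and from 1775152 to 4413318 in WT cells. The 45S pre-ribosomal RNA took 14.6% to 17.6% of counts in knockout libraries, and 41.9%, 39.8% and 19.6% in WT replicates 1, 2 and 3. Hepatocyte transcripts (23 genes) summed to 93.2 to 128 CPM in knockout libraries, and to 641, 1029 and 191 CPM in WT replicates 1, 2 and 3. Of 17 microglia and macrophage markers 3 had 0 reads in every library, and the list summed to 1.34 to 4.51 CPM in knockout libraries against 4.76, 35.2 and 5.45 CPM in WT replicates 1, 2 and 3. Csf1r, the receptor of a macrophage growth factor, had 21 of the 44 reads behind the value of WT replicate 2. Ptprc had 9 of them, C1qa 7 and C1qb 4, while Itgam, Adgre1 and Tmem119 were at 0 in all 6 libraries. Lymphocyte markers had 1 read in all. Class II presentation genes (7) summed to 19.1 to 28.6 CPM in knockout libraries, against 35.7, 57.6 and 11.6 CPM in WT replicates 1, 2 and 3, with Ciita, their master regulator, at 0 throughout. Most of these reads were from H2-Ab1, with 153, 128 and 87 in knockout and 100, 39 and 36 in WT libraries. H2-DMa was the only other gene of the list that was tested. H2-Aa had 1 read, in knockout replicate 2, and H2-DMb1 had 0 in every library. The neural stem cell list summed to 6895 to 8484 CPM in knockout and 5757 to 7550 CPM in WT libraries, with Sox2, Nes, Pax6 and Vim read in all 6. Its genes were not all alike: of 12 tested 9 were higher and 3 lower, and 0 passed. Groups did not overlap for 3, all higher, against 12.3% of all genes tested. Fabp7 had 689, 2132 and 1547 CPM in knockout replicates 1, 2 and 3, against 352, 73.5 and 708 CPM in WT replicates 1, 2 and 3. Msi1 had at most 5 reads in any library. The part of other cell types and of ribosomal RNA in the values below was not tested. In bulk libraries fewer cells of a type and less RNA per cell cannot be told apart.

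Relative to the mean of the 6 libraries, the median tested member stood at 0.01, -0.14 and -0.16 (log2 CPM) in knockout replicates 1, 2 and 3, and at 0.47, 0.25 and -0.34 in WT replicates 1, 2 and 3. WT replicate 3 was thus the lowest of the 6 libraries and WT replicates 1 and 2 the highest. Of the 25 tested members, 10 lay within the range of the knockout libraries in WT replicate 3 (40%, all genes 33.9%), 7 in WT replicate 1 (28%, all genes 25%) and 1 in WT replicate 2 (4%, all genes 16.1%). WT replicate 1 was above that range for 17 members and below it for 1. WT replicate 2 was above it for 14 and below it for 10, so it was not uniformly high.

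**Figure D2:**
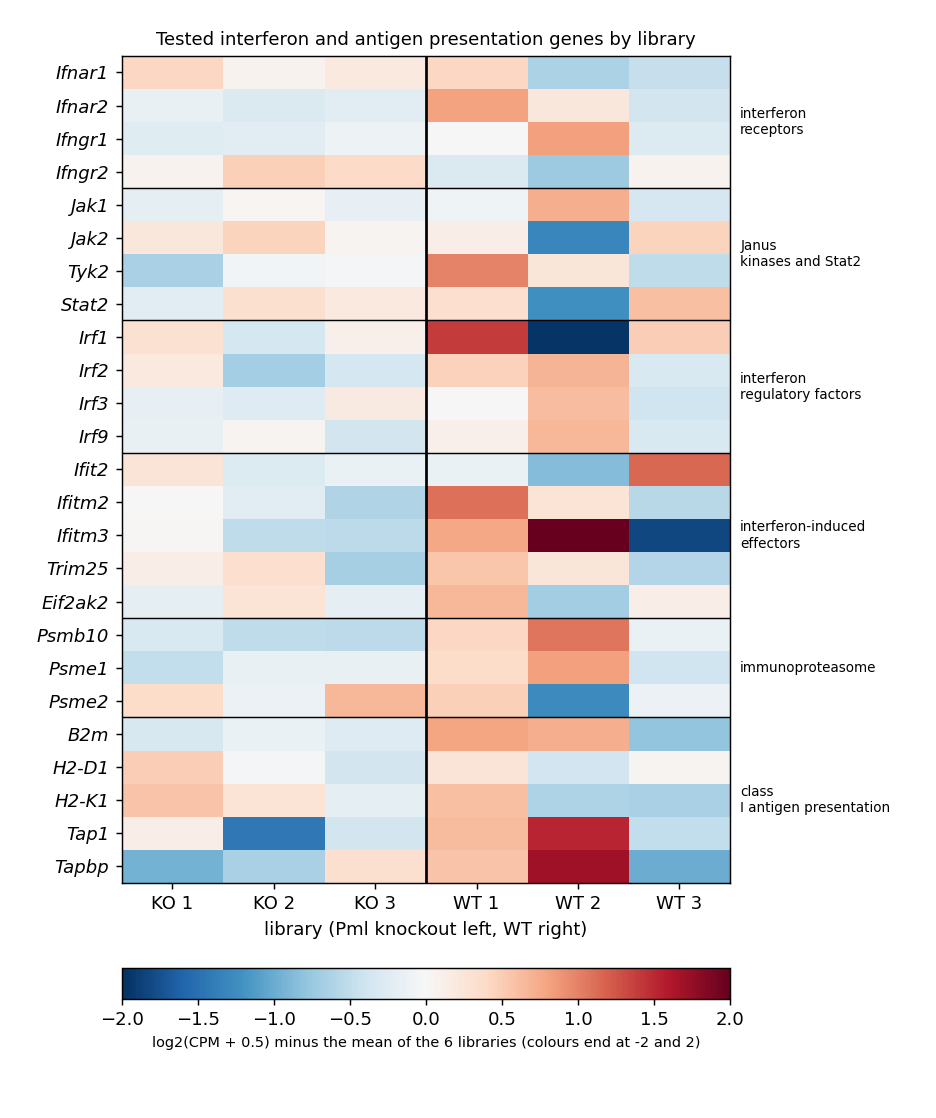
Colour map of log2(CPM + 0.5) of each tested member minus its mean over the 6 libraries, Pml knockout left of WT, with members grouped by role; colours end at -2 and 2. WT 2 holds most of the strong colours in both directions, and WT 3 has 10 of 25 members within the knockout range, against 1 for WT 2.

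Pml, the targeted gene, had 14, 23 and 5 reads in knockout replicates 1, 2 and 3, against 36, 35 and 44 in WT replicates 1, 2 and 3. The groups did not overlap (log2 fold change -2.81, SE 0.661, edgeR adjusted p = 0.197). A 3′ tag outside the removed part would not report on the deletion.

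The receptor chains were read in every library of both genotypes. Ifngr2, the signalling chain of the interferon gamma receptor, had 14.3, 19.1 and 17.9 CPM in knockout replicates 1, 2 and 3, against 11.0, 7.99 and 14.3 CPM in WT replicates 1, 2 and 3. The groups only just overlapped, through knockout replicate 1 and WT replicate 3 (log2 fold change 0.59, SE 0.360, adjusted p = 0.441). Its partner Ifngr1, which binds the ligand, had 17.3, 17.6 and 19.2 CPM in knockout cells, against 20.8, 36.8 and 17.0 CPM in WT cells (-0.42, SE 0.358, adjusted p = 0.573). WT replicate 2 was the highest there, while it was the lowest for Ifngr2. Ifnar2, the high-affinity chain for type I interferon, had 32.9, 29.8 and 31.6 CPM in knockout cells, against 64.3, 43.2 and 28.4 CPM in WT cells (-0.52, SE 0.336, adjusted p = 0.463). Ifnar1, its signalling partner, had 32.0, 25.2 and 27.4 CPM in knockout cells, against 31.8, 15.2 and 17.3 CPM in WT cells (0.38, SE 0.351, adjusted p = 0.612). The 2 chains of each receptor thus had fold changes of opposite sign, with overlapping groups for all 4 genes, but Ifngr1 turned positive with library totals (0.085) and all 4 were positive with WT replicate 3 as the sole WT library. Of the 4 chains, Ifnar1 and Ifngr2 stayed above 0 in all 21 alternatives of processing. In the last 300 bases of the longest Ifnar1 transcript, 11.6% of the 50-base words also occur in other genes.

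The kinases and Stat2 showed no shared direction. Tyk2, a kinase bound to Ifnar1, had 4.06, 6.43 and 6.56 CPM in knockout cells, against 13.7, 7.99 and 4.54 CPM in WT cells (log2 fold change -0.62, SE 0.516, adjusted p = 0.569). Stat2 had 6.92, 10.4 and 9.40 CPM in knockout cells, against 10.4, 3.20 and 12.7 CPM in WT cells, so WT replicate 2 alone was low (-0.06, SE 0.488, adjusted p = 0.963). Jak1, used by all interferon receptors, averaged 117 ± 9.75 CPM in knockout and 142 ± 58.2 CPM in WT cells (SD, n = 3 each). Jak2, used by the interferon gamma receptor, averaged 40.8 ± 5.61 CPM in knockout and 32.8 ± 17.3 CPM in WT cells. Their log2 fold changes were -0.26 and 0.28, smaller than their SE of 0.311 and 0.400.

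All 4 tested interferon regulatory factors had negative log2 fold changes, from -0.61 to -0.17, each with overlapping groups, but 2 (Irf3 and Irf9) were positive with library totals, Irf1 without WT replicate 1, Irf3 without WT replicate 2, and 3 of 4 with WT replicate 3 as the sole WT library. Irf2, which competes with Irf1 for response elements, had 54.8, 29.8 and 37.4 CPM in knockout cells, against 66.4, 76.7 and 38.8 CPM in WT cells (-0.56, SE 0.349, adjusted p = 0.445). Irf9, the DNA-binding partner of Stat2, had 6.62, 7.75 and 5.67 CPM in knockout cells, against 8.04, 11.99 and 5.90 CPM in WT cells (-0.32, SE 0.448, adjusted p = 0.742). In both genes the WT excess lay in WT replicates 1 and 2, and WT replicate 3 fell inside the knockout range. Irf1, an activator induced by interferon gamma, had 38, 21 and 33 reads in knockout libraries and 43, 1 and 29 in WT libraries. Irf3, the factor activated by nucleic acid sensors, averaged 15.3 ± 2.57 CPM in knockout and 17.6 ± 6.52 CPM in WT cells. Irf7, which amplifies type I interferon production, was not tested: it had 5, 1 and 0 reads in knockout libraries and 6, 0 and 3 in WT libraries. Scaled for depth its pooled reads were 0.310 times the WT level (95% interval 0.0907 to 0.974, counting error only).

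Of the 9 interferon-induced effectors, 4 were at or near the limit of detection in both genotypes. Isg15, a ubiquitin-like modifier that rises strongly with interferon, had 2, 2 and 1 reads in knockout libraries and 0 in each WT library. A count of 0 over the WT group allows up to 3 reads, which is 0.333 CPM, and the knockout group stood at 0.258 CPM, so no fold can be given. Ifit1, which binds foreign RNA caps, had 9, 3 and 5 reads in knockout libraries and 0, 2 and 0 in WT libraries. In CPM it had 1.354, 0.4947 and 0.7458 in knockout libraries, against 0, 1.5987 and 0 in WT libraries. The groups thus overlapped, and WT replicate 2 was the highest library, on 2 reads. The Ifit1 means were 0.865 CPM in knockout and 0.533 CPM in WT cells, closer together than the pooled reads below. Ifit3, which works with Ifit1 in the human complex, had 9, 3 and 6 reads against 0, 0 and 2. By pooled reads scaled for depth Ifit1 was 3.95 times (95% interval 0.937 to 35.2) and Ifit3 4.18 times (1.00 to 37.1) the WT level. These intervals cover counting error only, not the spread between libraries. Bst2, the tetherin that holds virions at the cell surface, had 12 reads over the knockout libraries and 9 over the WT libraries, which scaled for depth is 0.619 times the WT level (0.239 to 1.66).

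The tested effectors all had negative fold changes, 5 of 5, but Eif2ak2 and Trim25 were positive with library totals and without WT replicate 1, Ifit2 without WT replicate 3, and 3 of 5 with WT replicate 3 as the sole WT library. None passed. Ifitm3, which blocks virus entry in endosomes, had 6.17, 4.12 and 4.03 CPM in knockout cells, against 10.7, 26.4 and 1.36 CPM in WT cells (log2 fold change -1.31, SE 0.798, adjusted p = 0.437). The lowest and the highest library were both WT. Without WT replicate 3, where 13% of all genes passed, so did Ifitm3, lower (-1.88, adjusted p = 0.0381). With WT replicate 3 as the sole WT library its value was 1.79, so its sign rested on which WT libraries entered. Ifitm2, its paralog, had 3.91, 3.30 and 2.39 CPM in knockout cells, against 8.93, 4.80 and 2.497 CPM in WT cells (-0.75, SE 0.604, adjusted p = 0.552). Of the 50-base words in the last 300 bases of its longest transcript, 27.5% also occur in annotated copies, so its reads are uncertain. Ifit2 had 27, 16 and 20 reads in knockout libraries and 10, 2 and 35 in WT libraries. Trim25, a ubiquitin ligase of the RIG-I pathway, and Eif2ak2, the kinase PKR that halts translation on double-stranded RNA, had log2 fold changes of -0.15 (SE 0.510) and -0.23 (SE 0.474).

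Psmb10 was the member with the smallest p and the only tested member whose groups did not overlap (4%, against 23.6% of all genes tested). It encodes an inducible catalytic subunit that replaces Psmb7 in the immunoproteasome (ENSMUSG00000031897.9, chromosome 8, 105935735 to 105938444, minus strand, GRCm38). It had 18.1, 15.7 and 15.5 CPM in knockout cells, against 30.1, 48.0 and 20.4 CPM in WT cells. The means were 16.4 ± 1.43 and 32.8 ± 14.0 CPM (SD, n = 3 each). On the log2 scale knockout cells differed by -0.97 (SE 0.362, unadjusted p = 0.0230, edgeR adjusted p = 0.250). It was below 0 in all 21 alternatives, between -1.21 and -0.32, and its adjusted p ran from 0.0367 to 0.714, the lowest without WT replicate 3. It overlaps an antisense gene, Gm16156, whose reads cannot be told apart from it without a stated strand setting.

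The other inducible subunits were barely read. Psmb8 had 7, 0 and 5 reads in knockout libraries and 0, 5 and 2 in WT libraries, and Psmb9 had 1, 6 and 11 against 9, 0 and 1. Their pooled ratios were 0.796 (95% interval 0.289 to 2.39) and 0.836 (0.366 to 2.03). Psmb9 overlaps Tap1 on the opposite strand. Psme1 and Psme2 form the ring-shaped activator that docks on the proteasome. Psme1 had 27.7, 35.3 and 35.2 CPM in knockout cells, against 50.9, 69.5 and 29.5 CPM in WT cells (log2 fold change -0.59, SE 0.346, adjusted p = 0.422). Psme2 had the opposite sign (0.44, SE 0.455, adjusted p = 0.649), and 68.5% of the 50-base words at its transcript end are shared with its copy Psme2b. For Psme1 24.3% of such words also occur in other annotated genes, so the reads of both are uncertain.

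Among class I genes the light chain and the heavy chains had opposite signs, but H2-D1 was also negative without WT replicate 2 and B2m was positive with WT replicate 3 as the sole WT library. B2m, the light chain of every class I molecule (ENSMUSG00000060802.8, chromosome 2, 122147686 to 122153083, plus strand, GRCm38), had 96.0, 109 and 100.2 CPM in knockout cells, against 209.5, 199 and 69.2 CPM in WT cells. WT replicates 1 and 2 lay above and WT replicate 3 below every knockout library (log2 fold change -0.64, SE 0.383, adjusted p = 0.430). Without WT replicate 3 B2m passed lower (-0.99, adjusted p = 0.0261), as 13% of all genes did in either direction. With WT replicate 3 as the sole WT library its value was 0.55 (adjusted p = 0.275). H2-K1, a classical heavy chain on chromosome 17, had 75.2, 61.0 and 44.6 CPM in knockout cells, against 76.8, 32.8 and 32.2 CPM in WT cells (0.34, SE 0.387, adjusted p = 0.681). H2-D1, the other classical heavy chain, had 22.4, 15.3 and 12.1 CPM in knockout cells, against 19.0, 11.99 and 16.3 CPM in WT cells (0.05, SE 0.368, adjusted p = 0.957). H2-D1 shares 17.1% of the words at its transcript end with other transcripts, while H2-K1 shares 0.797%. Nlrc5, the class I transactivator, had 2, 0 and 3 reads in knockout libraries and 1, 2 and 7 in WT libraries, a pooled ratio of 0.232 (95% interval 0.0623 to 0.746, counting error only).

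**Figure D3:**
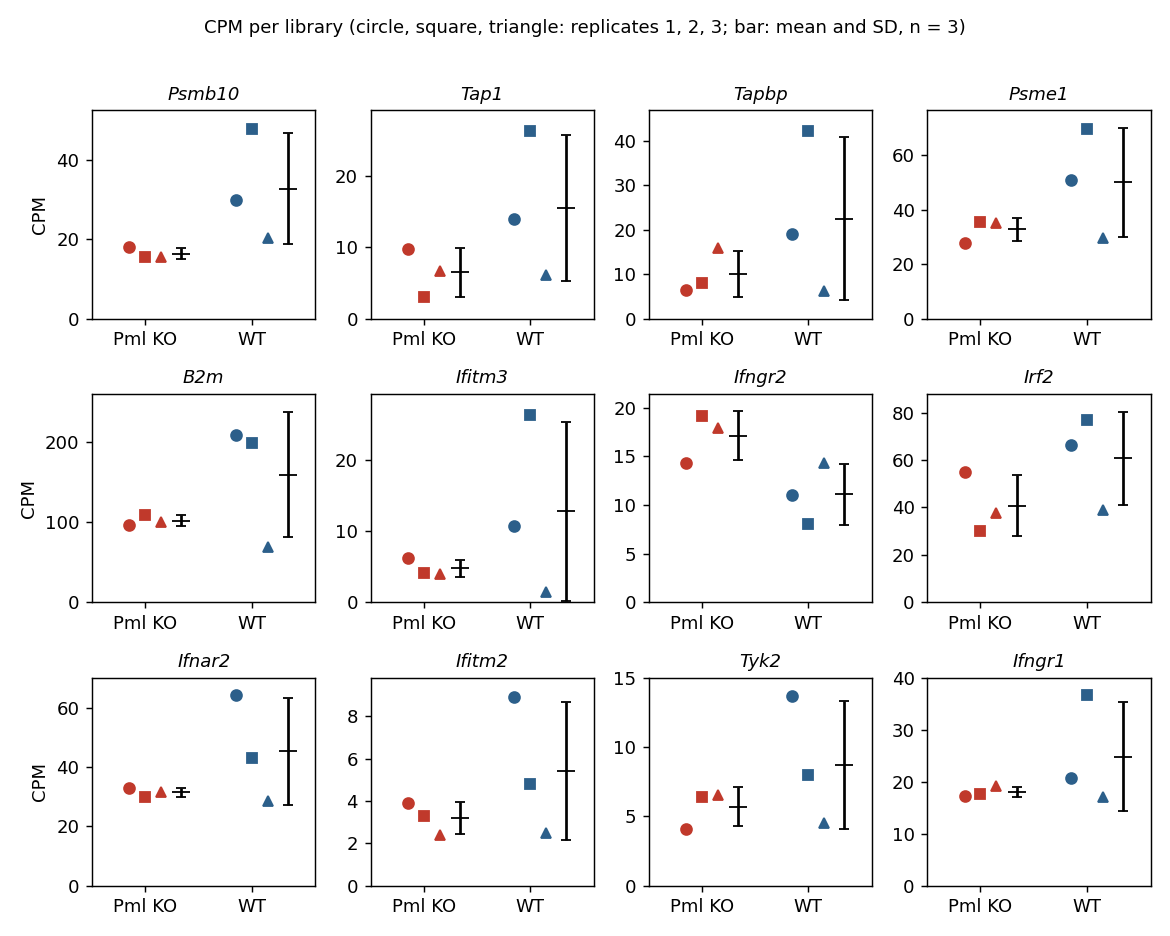
CPM per library of the 12 members with the smallest p, Pml knockout left of WT, with symbols for replicates 1, 2 and 3 and bars for mean and SD (n = 3 each). The SD of the knockout libraries is smaller than that of the WT libraries for each of the 12. For B2m, Ifitm3, Tapbp, Ifnar2 and Ifngr1 WT replicate 3 lies below every knockout library and the other 2 WT libraries above.

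Peptide transport and loading genes diverged. Tap1 (chromosome 17, 34187553 to 34197225, plus strand, GRCm38) had 9.78, 2.97 and 6.71 CPM in knockout cells, against 14.0, 26.4 and 6.13 CPM in WT cells (log2 fold change -1.18, SE 0.604, adjusted p = 0.365). Tapbp, the tapasin that bridges transporter and class I molecule, had 6.32, 7.92 and 16.0 CPM in knockout cells, against 19.0, 42.4 and 6.13 CPM in WT cells (-1.09, SE 0.636, adjusted p = 0.422). In both, WT replicate 2 was the highest library. WT replicate 3 lay below 2 of the 3 knockout libraries for Tap1 and below every knockout library for Tapbp. Tap2, the other half-transporter, was not tested for low counts. It had 12, 9 and 9 reads in knockout libraries and 0, 0 and 2 in WT libraries, which did not overlap. The pooled ratio was 6.97 (95% interval 1.77 to 60.2, counting error only). With no count filter its edgeR adjusted p was 0.375, and in the authors' deposited table its log2 fold change is 2.75 with an adjusted p of 0.147. The knockout libraries were at 1.81, 1.48 and 1.34 CPM, while a count of 0 in WT replicate 2 allows up to 2.40 CPM, so a difference from that library was not detectable at this depth.

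Members with the response element core in their promoter all had negative fold changes where tested, 7 of 7 (median log2 fold change -0.59, range -1.31 to -0.06), and 4 of the 11 were not tested. Of the 18 tested members without it, 12 were lower and 6 higher (median -0.29, range -1.18 to 0.59). The uniform sign depended on scaling and libraries: Stat2 and Eif2ak2 were positive with library totals and without WT replicate 1. Stat2 alone was positive where WT replicate 3 or knockout replicate 1 was left out. With WT replicate 3 as the sole WT library 5 of the 7 were positive. With no count filter, which brings in the 4 untested members, 3 of the 11 were positive (Ifit1, Ifit3 and Isg15) and 8 negative. None of either group passed, and no difference between them was tested.

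Other genes of the pathway, taken from lists chosen by name, also gave 0 calls by edgeR, and their directions were mixed. Of the 56 tested, DESeq2 called 3 (Iigp1, Tmem173 and Calr, all lower), which is 5.36%, against 2.9% of all genes. The exact test of edgeR called 3 (Socs3 higher, Iigp1 and Tmem173 lower), also 5.36%, against 3.17% of all genes. Voom with quality weights called 6 (Cxcl10 higher, Shisa5, Tmem173, Calr, Pomp and Psmb6 lower), which is 10.7%, against 11% of all genes. Limma voom called 0, and had 11 of the 56 at an unadjusted p under 0.05, against 15.2% of all genes. An adjusted p below is edgeR's quasi-likelihood value. By that test 15.9% of all genes had an unadjusted p under 0.05, the share to set beside each list count below. All 9 interferon ligand genes listed, among them Ifnb1 and Ifng, had 0 reads in all 6 libraries. Of 47 further interferon-induced genes, 10 had 0 reads everywhere, including Mx1, Oas1a and Oas3, and 18 were tested, 10 higher and 8 lower (median log2 fold change 0.22), with 2 at an unadjusted p under 0.05. Cxcl10, a T cell chemokine, had 43, 50 and 56 reads in knockout libraries and 5, 5 and 0 in WT libraries (2.47, SE 0.907, edgeR adjusted p = 0.245). Shisa5, an endoplasmic reticulum protein induced by p53, had 21.7, 22.9 and 20.0 CPM in knockout cells, against 48.8, 106 and 17.0 CPM in WT cells (-1.38, SE 0.535, adjusted p = 0.263). Of 12 interferon gamma-induced GTPases 2 were tested, with 1 at an unadjusted p under 0.05. Iigp1 had 9, 12 and 9 reads in knockout libraries and 7, 34 and 32 in WT libraries. In CPM it had 1.35, 1.98 and 1.34 in knockout cells, against 2.08, 27.2 and 7.26 in WT cells (-2.84, SE 0.842, adjusted p = 0.220).

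Of 12 brakes on Jak-Stat signalling 10 were tested, 4 higher and 6 lower. An unadjusted p under 0.05 was found for 3 of the 10, against 15.9% of all genes tested. Socs3, an inhibitor of Janus kinases, had 49, 70 and 57 reads in knockout libraries and 8, 2 and 15 in WT libraries (log2 fold change 1.79, SE 0.5003, edgeR adjusted p = 0.212). Socs2, of the same family, was at 7.52, 11.5 and 9.84 CPM in knockout cells, against 19.3, 51.2 and 12.7 CPM in WT cells (-1.47, SE 0.508, adjusted p = 0.240). Pias1, an inhibitor of Stat binding, averaged higher in knockout cells without passing (1.09, SE 0.327, adjusted p = 0.220). The groups did not overlap in any of these 3 genes, which were picked for a small p. In the list 3 tested genes were higher and 2 lower without overlap, against 12.3% and 11.3% of all genes tested. Of 14 nucleic acid sensing genes 11 were tested, 5 higher and 6 lower. An unadjusted p under 0.05 was found for 2 of the 11, against the same 15.9% of all genes. Tmem173, the adaptor STING of the cytosolic DNA pathway, had 1.5045, 1.65 and 1.79 CPM in knockout cells, against 5.95, 6.39 and 6.13 CPM in WT cells (-1.88, SE 0.527, adjusted p = 0.212). These values rest on 10, 10 and 12 reads in knockout libraries and 20, 8 and 27 in WT libraries. In WT replicate 2, 3 reads are 2.40 CPM, so the closeness of the 3 WT values is within counting error. The Tmem173 groups did not overlap, as held for 23.6% of all genes tested. Its adjusted p was 0.0414 by DESeq2, 0.0194 by edgeR's exact test and 0.0301 by voom with quality weights. Traf6, an adaptor ligase, had a value of 1.04 (SE 0.409, adjusted p = 0.266).

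The further class I and peptide loading list had 18 genes, of which 7 had 0 reads everywhere and 5 were tested, 2 higher and 3 lower, with 1 at an unadjusted p under 0.05. Calr, the chaperone calreticulin, had 749, 499 and 537 CPM in knockout cells, against 1643, 3484 and 632 CPM in WT cells (log2 fold change -1.69, SE 0.526, edgeR adjusted p = 0.228). All 10 genes of the constitutive proteasome list were tested, 5 higher and 5 lower, with 2 at an unadjusted p under 0.05. For both lists the share of all genes at that p was 15.9%. In the constitutive proteasome list 4 genes were lower without overlap (Psmb5, Psmb6, Pomp and Psme3) and 0 higher, against 11.3% and 12.3% of all genes tested. Psmb6, the constitutive counterpart of Psmb9, had 178, 142 and 181 CPM in knockout cells, against 293, 341 and 241 CPM in WT cells (-0.81, SE 0.257, adjusted p = 0.231). Pomp, the proteasome assembly chaperone, had a value of -0.84 (SE 0.281, adjusted p = 0.238). Psmb7, the counterpart of Psmb10, had a value of 0.30 (SE 0.397, adjusted p = 0.730).

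**Figure D4:**
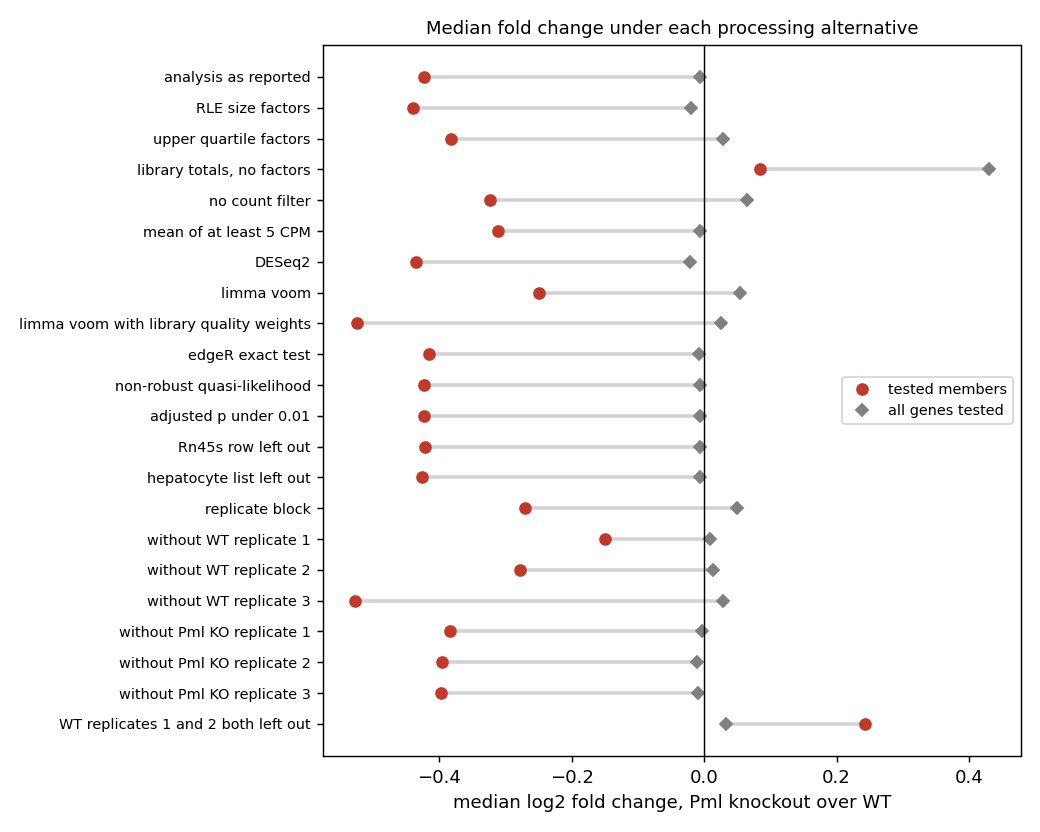
Median log2 fold change (Pml knockout over WT) of the tested members (circles) and of all genes tested (diamonds) for the reported analysis and each of 21 alternatives. The members lie below all genes except where WT replicates 1 and 2 are both left out (0.24 against 0.03).

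The median of the tested members followed the choice of WT libraries. It was -0.53 without WT replicate 3, where 3 members passed lower (B2m, Psmb10 and Ifitm3), or 12% of those tested, beside 1526 of all 11756 genes tested, or 13%. It was 0.24 without both WT replicates 1 and 2, where 0 members passed. A plain scaling to library totals moved the median of all genes to 0.43 and that of the members to 0.09, which is -0.35 relative to all genes.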

How the data were processed

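Counts of 3′ tag reads (QuantSeq forward kit, RNA integrity number above 7, per the labels' protocols) were analysed for 3 Pml knockout and 3 WT libraries. The authors deposited whole-number read counts per gene symbol, not normalized. Per the submitters' processing notes they used FastQC, HISAT2, HTSeq and edgeR with mm10; versions, annotation and strandedness are not given there. The authors' table also holds the authors' log2 fold changes and p-values (p and adjusted p), per the file headers, printed only where named as theirs. Library columns were matched by the library names in the labels, and 0 per-sample columns were left unused. Of 24421 symbols, 8329 had 0 counts everywhere.

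Counts were tested in R 4.3.3 with edgeR 4.0.16 (filterByExpr with minimum count 10 and minimum total 15, trimmed mean of M values, robust quasi-likelihood test, no covariate), with limma 3.58.1 and DESeq2 1.42.0 as alternatives. The procedure was first tested on simulated data. CPM use the same library factors, and SE is the size of the log2 fold change divided by the square root of F. Intervals are exact binomial at the 95% level and cover counting error only.

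The members, lists and tests were chosen with earlier results of these data known. Members named in full were, by rule, the 12 with the smallest p (1 was under 0.05) and 8 fixed by name; from other lists those with the smallest p were taken. Member coordinates are from GENCODE M21 (GRCm38, the assembly mm10 names), promoters from RefSeq (GRCm38.p6; 32 of 34 matched). Another annotated gene overlaps 19 members, 16 of them on the opposite strand, and 5 share over 10% of the 50-base words in the last 300 bases of their longest transcript with other genes. Planned protein identities were not computed, since no protein table was used here.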

Additional observations from a re-analysis of the deposited data

How the results depend on the processing

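No member passed in 20 of the 21 alternatives; without WT replicate 3 there were 3 (12%, against 13% of all genes). Over single libraries left out, members past the threshold numbered 0 to 3, members at an unadjusted p under 0.05 numbered 0 to 8 (the 8 are 32%, against 31.9% of all genes, without WT replicate 3), the median log2 fold change of the members ran from -0.53 to -0.15, and genes past the threshold numbered 0 to 1526. The cause of these shifts was not tested. Members at an unadjusted p under 0.05 numbered 6 by voom with quality weights (24%, against 29.7% of all genes) and 5 without both WT replicates 1 and 2 (18.5%, against 17% of all genes), compared with 1 in the reported analysis. The median was 0.085 with library totals and 0.24 without both WT replicates 1 and 2, against -0.42.

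Against 1 gene past the threshold there were 328 by DESeq2, 1242 by voom with quality weights, 359 by edgeR's exact test, 142 without both WT replicates 1 and 2, 3 with no count filter, and 0 with RLE factors, library totals, a mean of at least 5 CPM, limma voom, an adjusted p under 0.01 and the Rn45s row left out. With the replicate number as a block there were 2 genes, 0 members and a median of -0.27. Deviations of same-numbered libraries correlated at -0.00, 0.07 and 0.19, and those of differently numbered libraries at -0.18 to 0.09. Replicate numbers are those of the titles and differ from the digits in the knockout library names. The labels do not say what a number marks, so the numbers are not taken to pair samples.

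Of the values under alternatives of the 17 tested members named in full, 330 kept direction and side of the threshold, 23 changed sign and 3 passed. The other tested members are not in these counts. Of them, Jak1 and Irf3 were positive in 3 alternatives each, Trim25 in 4, Eif2ak2 in 2, and Irf1 and Ifit2 in 1 each. Jak2 was positive in 19 of 21 and Psme2 in all 21. With library totals Ifngr1 was at 0.085, Stat2 at 0.32 and Irf9 at 0.18. Stat2 was also at 0.045 with the replicate block and between -0.37 and 0.27 with single libraries left out. H2-D1 was at -0.035 by voom, -0.26 with quality weights and between -0.21 and 0.25 with single libraries left out, and H2-K1 at -0.13 with quality weights. Without both WT replicates 1 and 2 Tap1 was at 0.084, Tapbp 0.71, Psme1 0.14, B2m 0.55, Ifitm3 1.79, Irf2 0.065, Ifnar2 0.15, Ifitm2 0.35, Tyk2 0.32, Ifngr1 0.081 and Irf9 0.17. That fit leaves 1 WT library, assumed to vary like the knockout libraries. Depth limits the 9 untested members, since 3 reads are 0.447 to 0.495 CPM in knockout and 0.681 to 2.40 CPM in WT libraries.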
